A study of Mus musculus with 12 samples.

Results

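Ccl2, Ccl7, Ccl8 and Ccl12 are secreted CC chemokines that attract monocytes, and Ccr2 is the main receptor of Ccl2, Ccl7 and Ccl12. These 5 genes, chosen by name, were followed among the 19369 genes counted in libraries of whole tumours and the 18574 counted in libraries enriched for leukocytes. In the bone marrow, Ccr2 carries monocytes out into the blood, and its ligands draw them into inflamed or malignant tissue, where they become macrophages. In mammary tumours the Ccl2 and Ccr2 axis is best known for this supply of monocyte-derived macrophages, and the ligands can come from cancer cells, fibroblasts, vessel cells or macrophages themselves. Ccr2 is also carried by subsets of T cells and NK cells.

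The tumours grew from 4T1, a BALB/c mouse mammary carcinoma line used as a model of triple-negative breast cancer. Clones E, EM1, EM2, EM3 and M were each derived from a single 4T1 cell, and the labels place them between epithelial and mesenchymal states. Each clone, or the parental 4T1 line, was implanted into the mammary fat pad of female BALB/c mice aged 9 to 11 weeks with an intact immune system, and the labels name no drug or further allele. Each of the 6 groups was 1 tumour, which gave a Total library from all of its dissociated cells and a CD45 library from cells held by magnetic beads against the leukocyte antigen CD45. A difference between tumours therefore cannot be told apart from the difference between clones, and no test was made between groups.

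Levels are given as CPM, the unique molecular identifiers (UMIs) of a gene as counts per 1e6 UMIs summed over all cells of an annotated class in a library. Brackets hold exact 95% Poisson intervals, which cover counting error only. Values are listed for the tumours in the order E, EM1, EM2, EM3, M and 4T1. Library depth ranged from 28083101 to 122055131 UMIs over 6709 to 13467 cells. The libraries of E and EM3 shared 1400 to 1760 cell barcodes with each other and those of EM1 and EM2 818 to 1332. The other 13 pairs of tumours, among them 4T1 with M and M with E, shared 46 to 211. The Total and the CD45 library of a tumour shared 850 to 1732. In the Total libraries the 9 marker lists with a class of their own were highest there in 6 of 6 libraries. The monocyte list has no class of its own and summed to 435 to 1217 CPM in Total macrophages and 1287 to 2016 CPM in B cells. In the CD45 libraries each list with its own class was highest there apart from the macrophage list, which was highest in Other Myeloid cells in 3 of 6, and the mast cell list.

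The 4 ligand genes lie in a cluster on chromosome 11 of GRCm38, all on the plus strand. Ccl2 spans chr11:82035571-82037453, Ccl7 chr11:82045712-82047525, Ccl12 chr11:82101845-82103400 and Ccl8 chr11:82115185-82116799. Ccr2 lies on chromosome 9 at chr9:124101950-124113557. CC chemokines are named after a pair of adjacent cysteines near the start of the mature protein, and the coding stretches of the 4 ligands around that pair follow, from the GENCODE M21 transcripts, to show how far the genes can be told apart by sequence. The 6 capital bases are the 2 cysteine codons.
Ccl2: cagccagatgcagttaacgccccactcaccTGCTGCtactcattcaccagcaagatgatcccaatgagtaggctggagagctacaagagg
Ccl7: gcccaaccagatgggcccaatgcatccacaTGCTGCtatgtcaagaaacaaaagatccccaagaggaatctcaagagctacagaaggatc
Ccl8: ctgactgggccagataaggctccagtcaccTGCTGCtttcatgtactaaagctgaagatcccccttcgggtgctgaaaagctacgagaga
Ccl12: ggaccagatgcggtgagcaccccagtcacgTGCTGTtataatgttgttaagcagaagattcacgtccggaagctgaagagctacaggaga

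The stretches cover coding bases 70 to 159 of Ccl2, 67 to 156 of Ccl7, 64 to 153 of Ccl8 and 67 to 156 of Ccl12. Over the whole coding sequence, Ccl7, Ccl8 and Ccl12 were 63.6% to 66.6% identical to each other. Ccl2, whose coding sequence of 444 bases is longer than the 291 to 312 bases of the others, was 49.2% to 50.9% identical to them. Identity was counted over the whole alignment with gaps as differences. The extra bases of Ccl2 thus lower its values, which are not read as a greater divergence. None of the 4 is a near-identical copy of another.

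Ccl2, the ligand for which the axis is named, was highest in fibroblasts in every Total library. Its level in fibroblasts was 1801, 2015, 2224, 1889, 3049 and 1758 CPM, from 52 to 246 cells per tumour. In endothelial cells it was 421, 156, 254, 98.6, 358 and 511 CPM, and in macrophages 114, 96.6, 208, 173, 147 and 118 CPM. The fibroblast level exceeded the macrophage level 10.7-fold to 20.9-fold, a mean log2 difference of 3.82 (SD 0.40, n = 6 tumours), so the ranges of these classes did not overlap. The fibroblast level exceeded the endothelial level by 3.44-fold to 19.1-fold. Endothelial cells and macrophages, the next in order, did not differ beyond their spread, with a mean log2 difference of 0.87 (SD 1.04).

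Ccl7, a close relative that also binds Ccr2, had the same leading class. In fibroblasts it reached 1589, 1654, 1943, 2246, 1890 and 1238 CPM, and in macrophages 147, 219, 329, 318, 296 and 135 CPM. Fibroblasts exceeded macrophages by 5.91-fold to 10.8-fold, a mean log2 difference of 2.88 (SD 0.30, n = 6 tumours). Endothelial cells held 27.2, 41.3, 11.2, 158, 9.83 and 80.7 CPM, so that Ccl7 there was 14.2-fold to 192-fold lower than in fibroblasts. The endothelium lay below macrophages for Ccl7 in 6 of 6 tumours.

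The fibroblast signal was carried by a large part of the cells. A Ccl2 UMI was found in 56.3% to 84.1% of fibroblasts, and in 41.9% to 65.0% once cells were thinned to 1000 UMIs. All thinned values leave out cells with fewer than 1000 UMIs. The Stromal class used below is the union of the authors' Fibroblast and Endothelial classes. When its cells were split by whether the fibroblast or the endothelial marker list had more UMIs, Ccl2 was 1777, 2054, 2200, 1897, 3063 and 1760 CPM on the fibroblast side. It was 451, 75.4, 263, 99.7, 363 and 513 CPM on the endothelial side. These values were close to the authors' endothelial class except in EM1, where 75.4 CPM stood against 156 CPM. The lists mark these same classes, so the split largely returns them and is no separate check. In 4T1, for example, 239 of 241 cells on the fibroblast side were annotated fibroblasts.

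**Figure D1:**
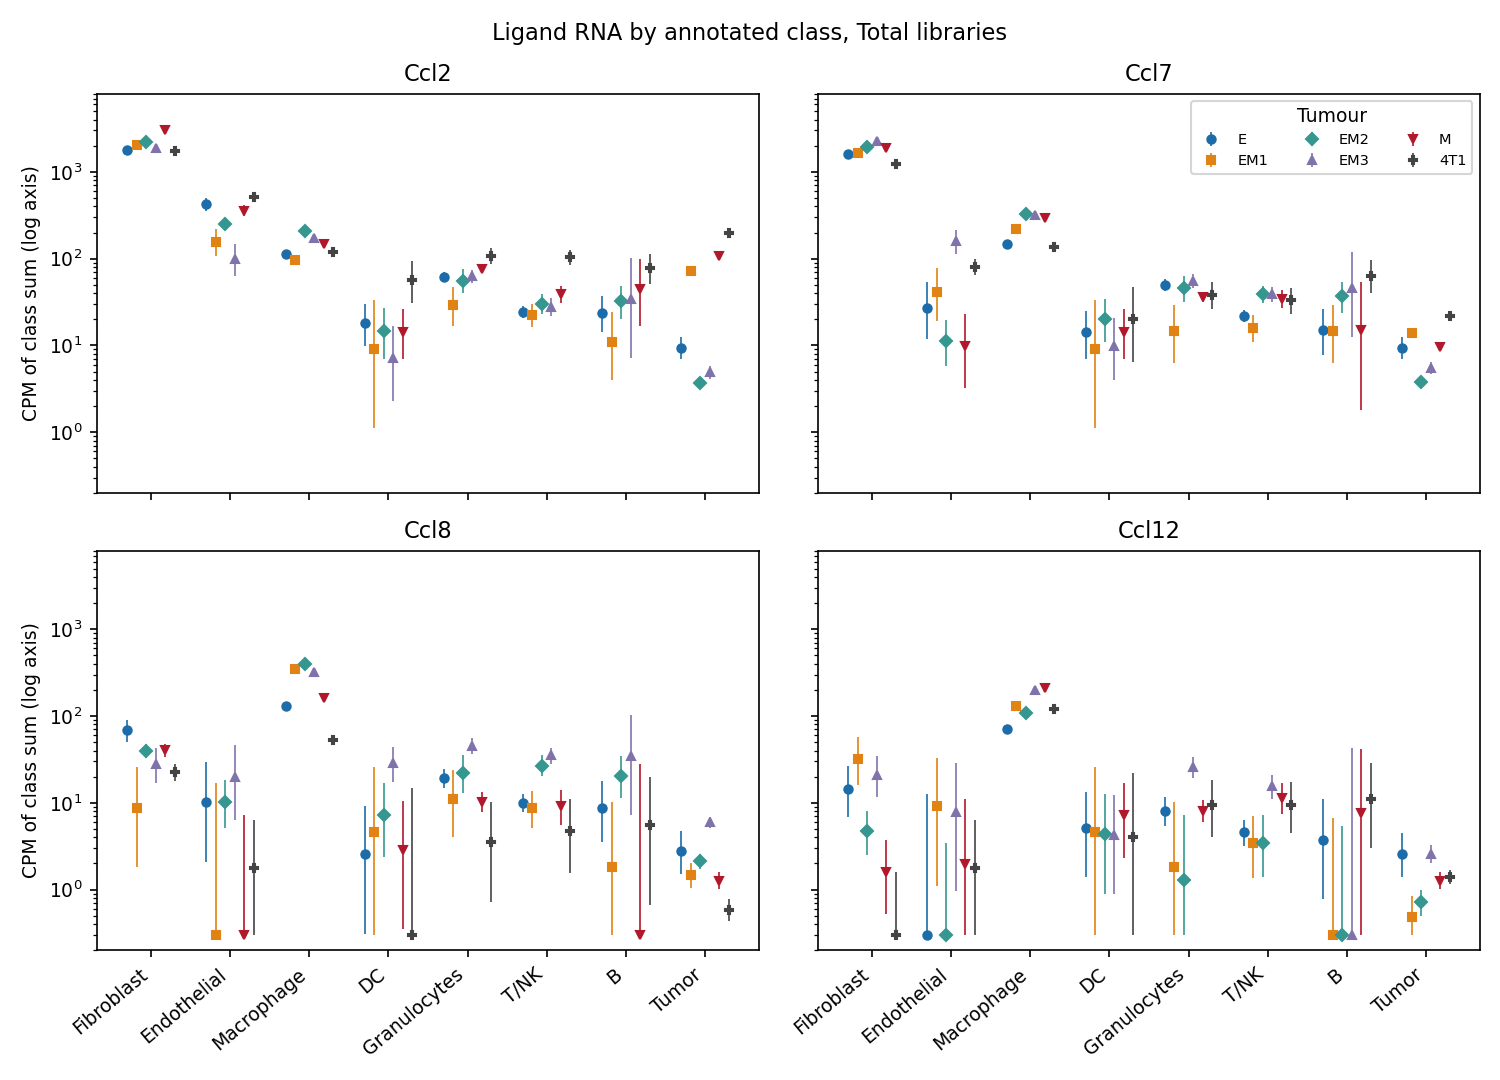
Level of each ligand (CPM, log axis) by annotated class in the Total libraries, 1 point per tumour with its exact 95% Poisson interval, and values under 0.3 CPM drawn at 0.3 CPM. Among the classes drawn, which leave out Unknown cells, Ccl2 and Ccl7 peak in fibroblasts and Ccl8 and Ccl12 in macrophages.

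Fibroblasts did not always hold most of the ligand RNA. They held 30.4%, 20.5%, 56.7%, 16.4%, 45.3% and 23.7% of the Ccl2 UMIs of their Total library. Macrophages held 55.3% and 78.9% in E and EM3 and 9.04% to 37.7% in the other tumours. Annotated tumour cells held 57.6% in EM1, 32.1% in M and 63.3% in 4T1, but 1.14% to 1.70% in E, EM2 and EM3. These shares depend on how many cells of each class a dissociated tumour yielded. Of the Ccl7 UMIs, macrophages held 66.1%, 58.7%, 52.9%, 85.4%, 53.9% and 29.1%, and fibroblasts 11.4% to 47.0%.

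Annotated tumour cells differed widely in Ccl2 from one tumour to another. The level was 9.38 [6.89 to 12.5], 72.4 [69.2 to 75.7], 3.73 [3.21 to 4.31], 4.92 [4.14 to 5.80], 106 [104 to 109] and 198 [195 to 201] CPM, from 753 to 5833 cells. EM1, M and 4T1 lay above and E, EM2 and EM3 below, with no overlap of intervals between these sets of tumours. EM1 exceeded EM2, with which it shares many barcodes, by 19.4-fold (log2 difference of CPM + 10, 2.58). M exceeded E, with which it does not, by 11.3-fold (2.59).

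A difference was called when the log2 ratio of CPM + 10 reached 1 in size, among genes with at least 10 CPM in either tumour. By this rule 2.72% of genes were called between EM1 and EM2 in tumour cells, 12.6% between M and E, 9.82% between EM3 and E and 3.89% between 4T1 and M. Of the 20 values that the 5 genes gave in 4 contrasts of tumour cells, 5 reached the 10 CPM needed to enter. Of these, 2 were called, both of them Ccl2. Ccl7 in tumour cells was 9.38, 14.1, 3.83, 5.51, 9.46 and 21.8 CPM, and none of its contrasts passed. It was 3.67-fold higher in EM1 than in EM2 and 2.30-fold higher in 4T1 than in M, with intervals apart. With the pseudocount of 10 CPM these were log2 differences of 0.80 and 0.71. Ccl8 in tumour cells ranged from 0.585 to 5.93 CPM and Ccl12 from 0.488 to 2.60 CPM.

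Free RNA from other cells puts UMIs of a chemokine into cells that do not make it, so the level in T and NK cells of the same library serves as a background. There Ccl2 was 24.4, 22.3, 30.4, 27.8, 38.9 and 103 CPM, and in granulocytes 62.0, 29.4, 55.9, 63.2, 75.5 and 107 CPM. Tumour cells of EM1, M and 4T1 lay above both backgrounds, and those of E, EM2 and EM3 below both. As a ratio, the margin over T and NK cells was narrowest in 4T1, 198 against 103 CPM, and that over granulocytes was narrowest in M, 106 against 75.5 CPM. Macrophages of 4T1, at 118 CPM of Ccl2, lay close to the background of granulocytes. Thinned to 1000 UMIs per cell, 7.59% of macrophages in 4T1 had a Ccl2 UMI, below granulocytes at 11.0% and T and NK cells at 10.1%. In E, EM1, EM2, EM3 and M the thinned shares of macrophages and granulocytes also had overlapping intervals, for example 7.53% and 6.88% in M. Macrophages had the higher thinned share in each of these tumours, but not in 4T1. Without thinning, 26.1% of macrophages in 4T1 had a Ccl2 UMI, against 13.2% of granulocytes and 14.7% of T and NK cells. Their median depths were 7332.5, 1150 and 1312 UMIs per cell, and the part of free RNA in macrophages was not tested. In the CD45 libraries the thinned shares were apart, at 4.62% to 7.04% in macrophages and 1.20% to 4.15% in granulocytes. Macrophages also had the higher CPM of Ccl2 there in 6 of 6 tumours, by a mean log2 difference of 1.28 (SD 0.27).

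The share of tumour cells with a Ccl2 UMI was 5.98%, 21.6%, 5.26%, 6.34%, 35.6% and 39.8%, at median depths of 6417 to 15246 UMIs per cell. Thinned to 1000 UMIs, it was 0.815%, 5.31%, 0.771%, 0.885%, 7.26% and 11.4%. T and NK cells, whose median depths were 1096.5 to 2082 UMIs, gave 2.87%, 1.46%, 3.10%, 2.62%, 4.79% and 10.1% after the same thinning. By this measure EM1 and M stood above their T and NK cells, 4T1 was 11.4% against 10.1%, and the other tumours lay below the background. The thinned values of EM1 rest on the deeper 959 of 1520 T and NK cells and 160 of 554 granulocytes. Granulocytes gave 3.12% in EM1 (exact 95% interval 1.02% to 7.14%), 6.88% in M and 11.0% in 4T1, which the interval of the tumour cells overlapped in each. By thinned shares alone, tumour cells were thus not separable from granulocytes in these tumours. Without thinning, 4T1 held 16538 Ccl2 UMIs in 5833 tumour cells, 109 in 707 T and NK cells and 92 in 605 granulocytes. In M these were 6713 in 4553, 85 in 1082 and 436 in 3882, and in EM1 1928 in 2832, 46 in 1520 and 16 in 554. In E they were 47 in 753, 176 in 3013 and 214 in 2511. Tumour cells thus held more per cell in EM1, M and 4T1, but are also deeper, and the part of free RNA was not tested.

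The balance of Ccl7 and Ccl2 UMIs was compared between classes of a library. It falls as Ccl2 rises, so between tumours it adds nothing to the Ccl2 levels above. Ccl7 made up 50%, 16.3%, 50.7%, 52.9%, 8.17% and 9.92% of the 2 genes' joint UMIs in tumour cells. In fibroblasts it made up 38.3% to 54.3%, in macrophages 53.3% to 69.4%, and in T and NK cells 47.5%, 41.8%, 56.4%, 58.4%, 46.9% and 24.3%. Tumour cells of EM1, M and 4T1 thus had less Ccl7 beside their Ccl2 than every other of these classes in the same library. In E, EM2 and EM3 the balance in tumour cells, at 50% to 52.9%, lay between those of T and NK cells in the 3 tumours, at 47.5% to 58.4%. The summed fibroblast marker list in tumour cells was 200, 237, 190, 228, 299 and 168 CPM, so it was highest in M and EM1 and lowest in 4T1, all of them tumours with high Ccl2 in tumour cells. Its part in the Ccl2 level was not tested.

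**Figure D2:**
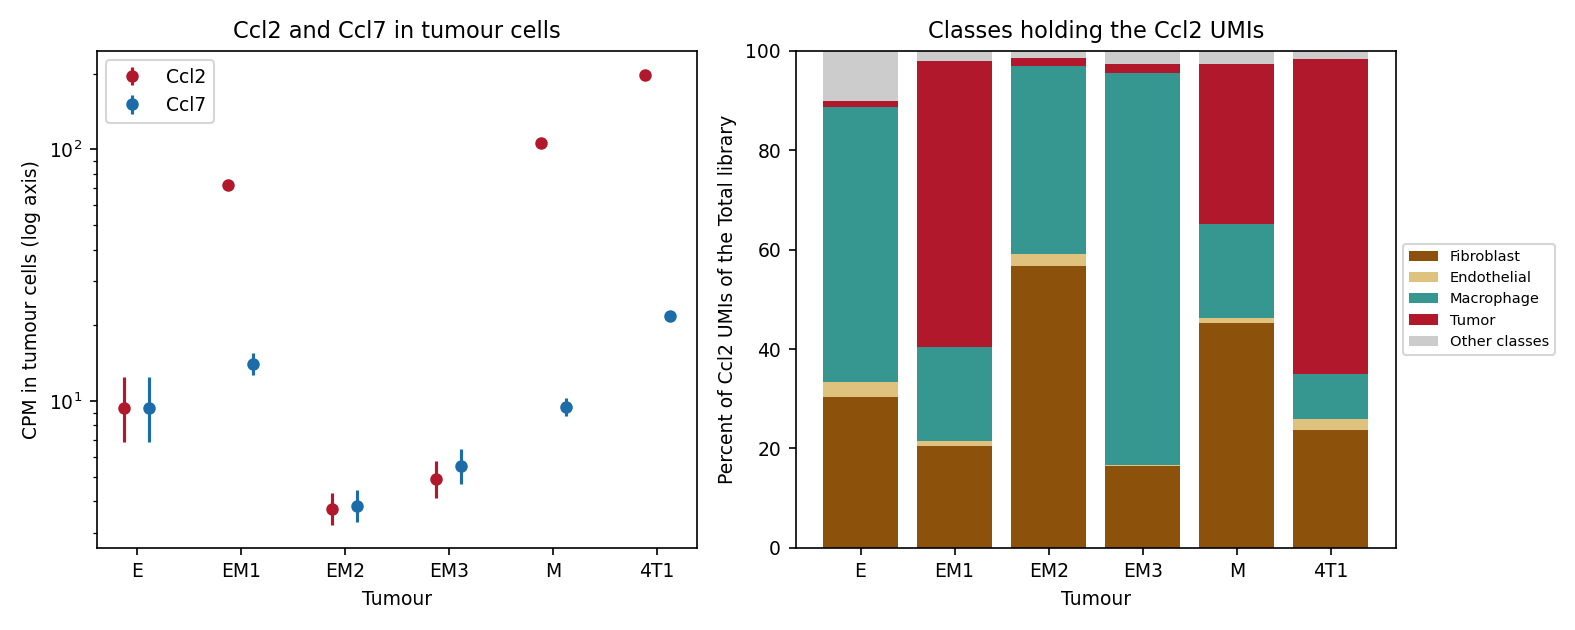
Left, Ccl2 and Ccl7 in annotated tumour cells of the 6 Total libraries (CPM, log axis, with exact 95% Poisson intervals), and right, the percent of each library's Ccl2 UMIs held by each class (stacked bars). Ccl2 stands apart from Ccl7 in EM1, M and 4T1, at 72.4, 106 and 198 CPM, and tumour cells hold 57.6%, 32.1% and 63.3% of the Ccl2 UMIs there.

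Genes known to induce or regulate these chemokines were read in the same contrasts of tumour cells. Of 5 testable inducers, Il6 was higher in EM1 than in EM2 and none was lower, and of 10 regulators of the NF-kB and interferon pathways none was called. Between M and E, 3 of 7 inducers were lower in M, namely the cytokine genes Il1a, Il1b and Csf2. Of the regulators in that contrast, Cebpb, a transcription factor gene, was higher and Irf1 was lower. The median log2 difference of the inducers was -0.18 for EM1 against EM2 and -0.91 for M against E. Over all genes, 1.66% were called higher and 1.07% lower in the first contrast, and 4.84% and 7.76% in the second.

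In the Total libraries, Ccl8 and Ccl12 were highest in macrophages among the named classes. Ccl12 encodes a Ccr2 ligand, and Ccl8 encodes a chemokine that acts on Ccr8 in the mouse. Ccl8 in macrophages of the Total libraries was 131, 350.0, 398, 326, 161 and 53.5 CPM, which made 88.0% to 96.9% of all Ccl8 UMIs. In fibroblasts it was 68.7, 8.80, 39.8, 28.0, 40.1 and 22.7 CPM, and macrophages exceeded them by 1.90-fold to 39.8-fold. Ccl12 in macrophages was 70.8, 131, 107, 201, 212 and 122 CPM, or 91.0% to 97.4% of all Ccl12 UMIs. Fibroblasts held 0.284 to 32.3 CPM of it, a range that did not overlap that of macrophages. T and NK cells held 4.73 to 35.1 CPM of Ccl8 and granulocytes up to 45.5 CPM. Cells that the authors left as Unknown, at least 20 of them in EM3, M and 4T1, held 143, 137 and 9.80 CPM of Ccl8 and 62.5, 86.6 and 162 CPM of Ccl12, the last above the 122 CPM of macrophages in 4T1.

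The windows from 250 bases before to 50 bases after the start of Ccl8 and Ccl12, taken from RefSeq on GRCm38.p6, are shown because these genes shared their leading class. Promoter sequences were matched for Ccl8, Ccl12 and Ccr2, 3 of the 5 genes. Capitals mark TATAAA, the TATA box core, and GAGGAA, the core bound by Spi1 (PU.1), a transcription factor of myeloid cells, on either strand. Ccl8 lies at chr11:82114935-82115234 and Ccl12 at chr11:82101595-82101894, both on the plus strand.
Ccl8: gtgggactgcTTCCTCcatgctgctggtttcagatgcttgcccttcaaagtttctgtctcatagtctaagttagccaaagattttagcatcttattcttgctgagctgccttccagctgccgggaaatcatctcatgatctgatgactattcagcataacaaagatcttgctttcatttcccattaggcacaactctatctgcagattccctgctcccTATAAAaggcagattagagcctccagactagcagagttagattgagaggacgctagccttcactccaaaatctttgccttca
Ccl12: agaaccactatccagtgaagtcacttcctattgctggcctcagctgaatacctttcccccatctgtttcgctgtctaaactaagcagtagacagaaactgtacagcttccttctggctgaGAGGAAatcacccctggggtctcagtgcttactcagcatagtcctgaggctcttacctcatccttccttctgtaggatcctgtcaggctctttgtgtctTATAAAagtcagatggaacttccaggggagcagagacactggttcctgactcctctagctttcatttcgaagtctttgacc

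TATAAA began at -32 in Ccl8 and at -31 in Ccl12, counted from the start. Either strand of TATAAA occurs in 13.6% of the 32851 windows of this length and GAGGAA in 28.3%. The motifs TTCNNNGAA, a STAT core held by 8.30% of windows, and the NF-kB core, 3 G and 2 C with 5 free bases between them, held by 50.8%, were not found in these windows, nor was any of the 4 in that of Ccr2. These are matches of letters and not binding sites.

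The CD45 libraries separate Macrophage from a smaller class named Other Myeloid, and Ccl8 and Ccl12 parted there. Ccl8 was 195, 418, 380, 213, 137 and 38.5 CPM in macrophages and 114, 244, 210.3, 151, 117 and 18.4 CPM in Other Myeloid cells, lower in 6 of 6 tumours with a median ratio of 0.586. In 4T1, dendritic cells held 75.8 CPM of Ccl8, above both classes. Ccl12 was 60.7, 115, 82.6, 112, 134 and 97.3 CPM in macrophages and 93.9, 296, 150.2, 258, 398 and 133 CPM in Other Myeloid cells. It was higher there in 6 of 6 tumours, 1.36-fold to 2.98-fold, a mean log2 difference of 0.95 (SD 0.43, n = 6 tumours). With means of per-cell CPM, macrophages were the highest class for Ccl8 in 2 tumours in place of 5, and Ccl12 in Other Myeloid cells averaged 392 in place of 222 CPM. The macrophage marker list was itself higher in Other Myeloid cells in 3 of the 6 libraries. The plasmacytoid dendritic cell list summed to 717 to 1518 CPM there, against 380 to 610 CPM in macrophages. The part of these lists in the differences was not tested.

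Ccl2 and Ccl7 did not separate these classes. Ccl2 was 119, 89.0, 116, 125, 95.8 and 72.9 CPM in macrophages and 37.2, 164, 180, 126, 70.7 and 64.7 CPM in Other Myeloid cells. Ccl7 was 177, 236, 236, 205, 222 and 101 CPM in macrophages and 55.1, 309, 287, 178, 226 and 77.4 CPM in Other Myeloid cells. Each class was the higher one in 3 of 6 tumours for either gene. T cells held 5.69 to 16.1 CPM of Ccl2 and granulocytes 19.2 to 46.9 CPM.

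High values of Ccl7 also came from a small subclass that the authors named T/Myeloid Hybrid2. It reached 436 CPM in E, from 26 UMIs in 21 cells, and 1145 CPM in EM2, from 52 UMIs in 24 cells. In EM1, EM3 and M it was 19.9, 74.3 and 17.0 CPM, from 1, 6 and 1 UMIs, below macrophages in each. Ccl2 in this subclass was also above macrophages in E and EM2, at 167.5 [80.34 to 308.1] and 242.2 [120.9 to 433.4] CPM. The interval in E held the 118.8 CPM of macrophages. In EM1, EM3 and M, Ccl2 was 0, 61.88 and 51.04 CPM, below macrophages in each. The mast cell marker list was highest in this subclass in 4 of 5 libraries in which it could be read and lower than in NK cells in the other, with a range of 170.1 to 12618 CPM over the 5. The granulocyte list summed to 36927 to 50977 CPM in it and the T cell list to 1519 to 2896 CPM. These levels rest on few cells.

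**Figure D3:**
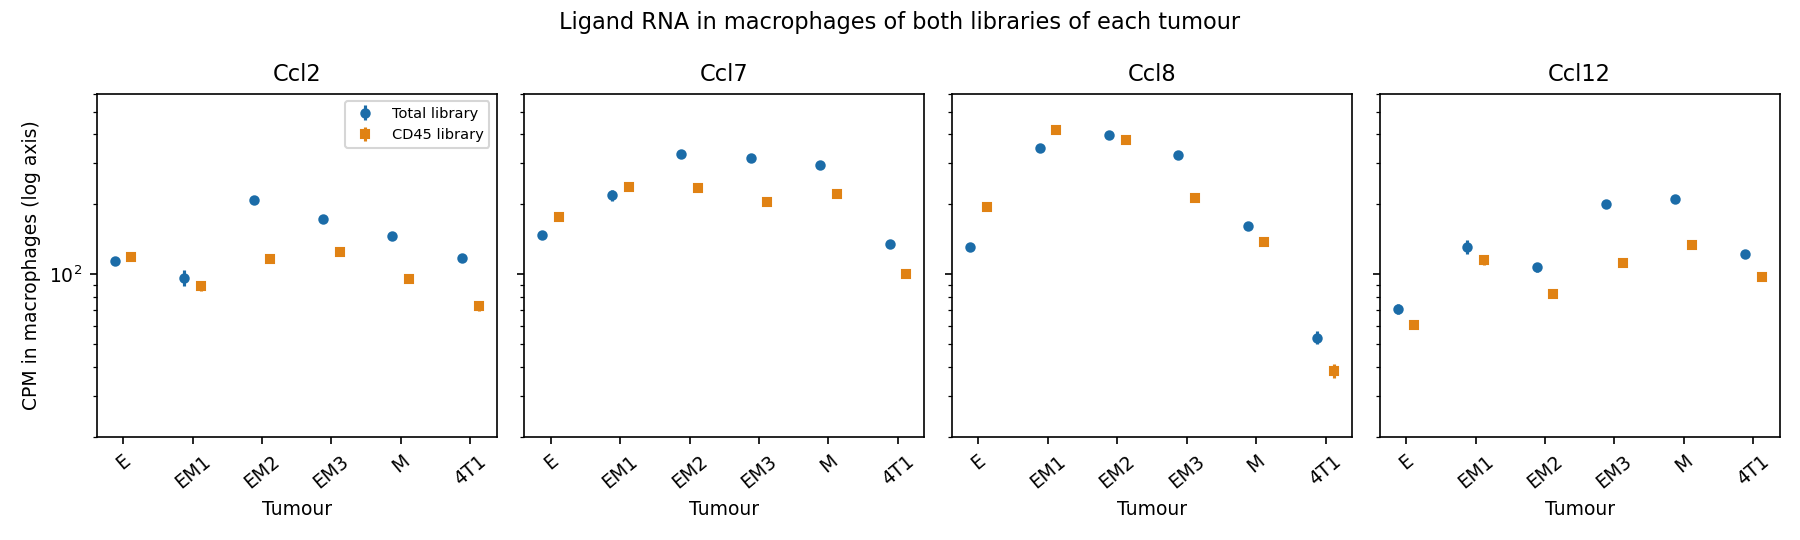
The 4 ligands in annotated macrophages of the Total and the CD45 library of each tumour (CPM, log axis, with exact 95% Poisson intervals). Ccl8 is lowest in 4T1 in both, at 53.5 and 38.5 CPM, and Ccl12 is lowest in E in both, at 70.8 and 60.7 CPM.

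Between tumours, macrophage Ccl8 was lower in 4T1 than in M in both libraries. It was 3.01-fold lower in the Total library (log2 difference -1.43) and 3.56-fold lower in the CD45 library (-1.60), where 1.12% and 0.885% of all genes were called. Ccl7 was 2.20-fold lower (-1.08) and 2.21-fold lower (-1.07) in the same contrast, calls that were lost with means of per-cell CPM in the Total (-0.82) and with TMM scaling in the CD45 library (-0.99). Ccl12 was higher in M than in E, by 2.99-fold (1.45) in the Total and 2.20-fold (1.02) in the CD45 library, where 5.07% and 4.46% of genes were called. The CD45 call was lost with means of per-cell CPM and with TMM scaling (0.75 each). The contrasts of 4T1 with M and of M with E share the tumour M, and those of M with E and of EM3 with E share E.

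Between EM3 and E, which share many barcodes, ligands were called in the Total library only. There EM3 macrophages held 2.16-fold more Ccl7 (1.06), 2.49-fold more Ccl8 (1.25) and 2.83-fold more Ccl12 (1.38), beside 1.89% of genes called. In the CD45 libraries of the same tumours the log2 differences were 0.20, 0.12 and 0.79, and none was called, beside 0.737% of all genes. The size of the Total differences was thus not repeated in the second library of the tumours. The direction was kept for Ccl7, Ccl8 and Ccl12, with intervals apart. In CD45 macrophages of EM3 against E, Ccl7 was 205.0 [200.6 to 209.5] against 177.2 [172.7 to 181.7] CPM. Ccl8 was 212.6 [208.1 to 217.1] against 194.6 [189.9 to 199.4] CPM, and Ccl12 was 112 [109 to 115] against 60.7 [58.0 to 63.4] CPM. The Total value of Ccl7 was 0.84 with means of per-cell CPM. Ccl2 was lower in EM1 than in EM2 macrophages of the Total library (-1.03), beside 0.29% of genes called, and by -0.35 in the CD45 library, which was not called, beside 0.319%. The Total value was -0.98 with means of per-cell CPM. In all, 7 of 20 values were called in Total macrophages and 3 of 20 in CD45 macrophages, and no value of Ccr2 was among them.

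In the Stromal class, 2 of the 17 values that could be read were called, both between EM1 and EM2, where 2.8% of all genes were called. The shares of genes called in the other contrasts of this class were 4.77% for EM3 against E, 2.56% for 4T1 against M and 7.97% for M against E. Ccl8 was 5.37 [1.11 to 15.7] CPM in EM1, from 3 UMIs, and 31.6 [26.2 to 37.7] CPM in EM2. Ccl12 was 23.3 [12.4 to 39.8] CPM in EM1 and 3.39 [1.81 to 5.80] CPM in EM2, a log2 difference of 1.31 that was 0.00 without cells holding a UMI of the leukocyte gene Ptprc. Ccl2 and Ccl7 gave no called difference in this class by this rule. With means of per-cell CPM more values were called in it.

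Monocyte genes and genes of mature macrophages were called in EM3 against E and in M against E as well. In Total macrophages, the monocyte genes Ly6c2, Plac8 and Chil3 were lower in EM3 than in E, and F13a1 was higher. Of 10 mature macrophage genes, 3 were higher (Mrc1, Folr2 and Cd163) and none lower, with a median log2 difference of 0.82. The median of all genes was 0.04, with 0.917% called higher and 0.978% lower. In the CD45 libraries of E and EM3, Ly6c2, Plac8 and Chil3 were lower, and Folr2 and Cd163 were higher, beside 0.362% of all genes higher and 0.375% lower. The part of this shift in the chemokine differences was not tested.

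Between M and E, genes of these lists were called in both directions. In CD45 macrophages, Ly6c2, Plac8 and Chil3 were lower in M, F13a1 and Itgam were higher, and so were Folr2 and Cd163. Of 6 inducers, Il1a, Il1b and Il6 were lower in M. Over all genes 2.26% were higher and 2.2% lower, and their median log2 difference was 0.21. Ly6c2, a marker of classical monocytes, was 172, 26.3, 73.6, 32.9, 20.4 and 27.2 CPM in CD45 macrophages, so E stood above all others. Il1b, an inflammatory cytokine gene, was 6544, 4391, 4040, 5282, 1684 and 3406 CPM, and M was lowest. In 4T1 against M, Il1b and Il6 were higher and Cd163 lower, beside 0.492% of all genes higher and 0.394% lower.

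Within CD45 macrophages of at least 1000 UMIs, cells with and without a Ly6c2 UMI were compared after each had been thinned to 1000 UMIs. Cells with Ly6c2 numbered 619, 96, 283, 162, 44 and 103. They held 260.1, 219, 304, 383, 432 and 330.1 CPM of Ccr2, against 158, 112, 117, 185, 104 and 136 CPM in the cells without, so that every tumour showed more Ccr2 beside Ly6c2. The mean log2 difference was 1.18 (SD 0.44, n = 6 tumours).

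The ligands Ccl8 and Ccl12 went the other way. Ccl8 was 33.9, 0, 28.3, 0, 0 and 0 CPM in cells with Ly6c2 and 211, 387, 343, 186, 123 and 47.7 CPM in cells without. The mean log2 difference of -3.57 (SD 1.12) depends on the pseudocount, since 4 of the 6 sums held no UMI. Ccl12 was 61.4, 41.7, 21.2, 37.0, 0 and 0 CPM with Ly6c2 and 64.7, 100.3, 74.3, 94.3, 111 and 79.1 CPM without, a mean of -1.75 (SD 1.35) that also depends on the pseudocount, through M and 4T1. In E and EM1 its values did not differ beyond counting error. They were 61.4 [43.4 to 84.3] and 64.7 [57.4 to 72.8] CPM in E. In EM1 they were 41.7 [11.35 to 106.7] CPM, from 4 UMIs, and 100.3 [89.53 to 112.0] CPM. For Ccr2, Ccl8 and Ccl12 the sign of the difference was the same in 6 tumours, and the exact two-sided sign-flip test gave p = 0.03125, the smallest that 6 pairs allow. Adjusted over the 5 genes by the Benjamini-Hochberg method, the exact test gave 0.0521, which does not pass 0.05. Without thinning, or with called doublets kept, the adjusted exact p of the sign-flip test was 0.0391 for these genes and for Ccl7. Since Ccr2, Ccl8 and Ccl12 were already at the smallest p, the lower adjusted value came from Ccl7 joining them. It adds nothing on these genes. The Ccl8 difference was smaller in size under both settings.

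Ccl7 was lower in cells with Ly6c2 in 5 of 6 tumours, by a mean log2 difference of -1.81 (SD 1.24), and the exact sign-flip test gave p = 0.0625 (adjusted 0.0781). The exception was EM3, with 204 CPM in cells with Ly6c2 and 184 CPM in cells without. Ccl2 was 220, 20.8, 70.7, 179, 22.7 and 155 CPM in cells with Ly6c2 and 123, 74.6, 93.0, 123, 90.6 and 77.8 CPM in cells without. It was higher in 3 of 6 tumours, with a mean of -0.20 (SD 1.13) and an exact p of 0.656. In E, EM3 and 4T1 the Ly6c2 cells thus held more Ccl2 and in EM1, EM2 and M less. The Poisson intervals were apart only in E and 4T1, and the Ly6c2 cells of EM1 and M held 2 and 1 UMIs of it. In Total macrophages, with 27 to 322 such cells, Ccr2 was again higher beside Ly6c2 in every tumour, Ccl8 lower in all but EM3 (333 against 299 CPM) and Ccl12 lower in all but E (87.0 against 80.3 CPM).

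**Figure D4:**
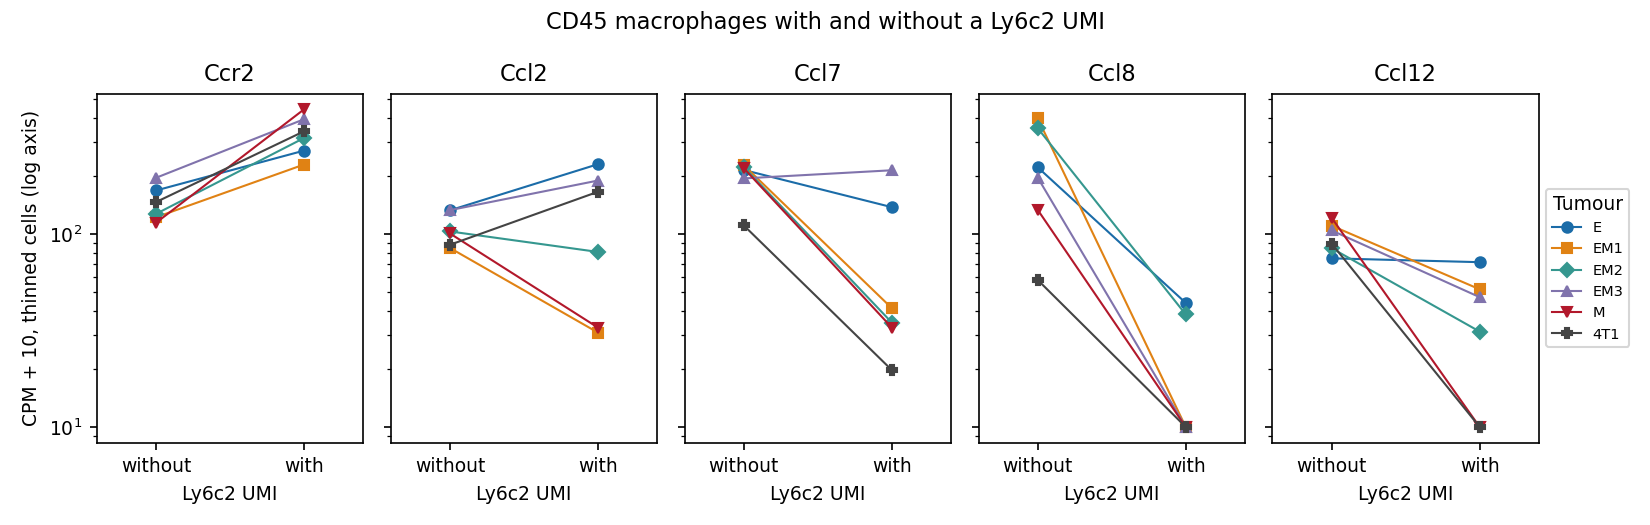
The 5 genes in CD45 macrophages with and without a Ly6c2 UMI (CPM + 10 after thinning to 1000 UMIs per cell, log axis), 1 line per tumour, so that sums without a UMI lie at 10. Ccr2 is higher beside Ly6c2 in 6 of 6 tumours, and Ccl8 and Ccl12 are lower in 6 of 6.

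Ccl2 and Ccl7 were found in the same single cells. In thinned CD45 macrophages with a Ccl2 UMI, Ccl7 was 2048, 2323, 1774, 1494, 1943 and 1058 CPM, against 79.1, 118, 87.1, 88.3, 108 and 51.3 CPM in those without. The ratio was 16.9 to 25.9 in the CD45 libraries and 12.5 to 21.7 in macrophages of the Total libraries. Among fibroblasts, where most cells hold Ccl2, the ratio was 2.11 to 5.57. The other genes were less tied to Ccl2 in CD45 macrophages, with ratios of 1.80 to 7.88 for Ccl12, 1.38 to 4.07 for Ccl8 and 0.990 to 1.35 for Ccr2. After thinning, 4.62% to 7.04% of CD45 macrophages had a UMI of Ccl2, 3.98% to 8.59% of Ccl7, 1.98% to 17.6% of Ccl8 and 3.62% to 5.91% of Ccl12. Granulocytes, read as a background, gave 1.20% to 4.15%, 1.68% to 3.91%, 0.871% to 4.54% and 0.362% to 1.96%.

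Ccr2, the receptor, had its highest CPM in lymphocyte classes of the CD45 libraries, although most of its RNA lay in macrophages. In the Total libraries it was 206, 108, 147, 219, 153 and 115 CPM in T and NK cells and 187, 113, 105, 121, 93.3 and 88.2 CPM in macrophages. T and NK cells were higher in 5 of 6 tumours, by a mean log2 difference of 0.39 (SD 0.32). By thinned shares of cells with a Ccr2 UMI the order was not the same, since macrophages were higher in E (16.1% against 13.4%), 4T1 (9.70% against 7.32%) and EM1, and no order is read from these classes. Macrophages held 68.8% to 86.1% of the Ccr2 UMIs of these libraries. Fibroblasts, the class with the highest Ccl2 level, held 0 to 18.6 CPM and tumour cells 0.488 to 4.39 CPM.

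The CD45 libraries resolved the lymphocytes. In Foxp3+ Cd4+ T cells, the regulatory T cells, Ccr2 was 622, 496, 648, 714, 377 and 360 CPM. In NK cells it was 455, 584, 614, 623, 362 and 343 CPM, and in macrophages 138, 100.3, 111, 156, 91.1 and 125 CPM. Foxp3+ T cells exceeded macrophages by 2.88-fold to 5.86-fold and NK cells exceeded them by 2.75-fold to 5.83-fold, in 6 of 6 tumours each. Against this NK class, Foxp3+ T cells did not differ beyond the spread, with a mean log2 difference of 0.10 (SD 0.22). The authors' finer annotation column puts more cells in NK, 63 to 229 against 38 to 132, and there Ccr2 was 392, 336, 370.3, 384, 293 and 260.2 CPM. Foxp3+ T cells exceeded that class in 6 of 6 tumours, by a mean of 0.61 (SD 0.20), so their order against NK cells rests on the annotation used. Other Myeloid lost as many cells as NK gained in each tumour. In EM2, for example, Other Myeloid fell from 475 to 378 cells and NK rose from 132 to 229. The finer NK class thus takes in cells of the Other Myeloid class, and their part in its lower Ccr2 was not tested.

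The other T cell classes varied in Ccr2. Trdc+ DN T cells, named for a gamma delta T cell receptor gene, held 237, 706 and 169 CPM in EM1, EM2 and M, from 22 to 25 cells each. Their value in EM2 was above that of Foxp3+ T cells, but not beyond counting error. Cd44+ Cd4+ T cells, an antigen-experienced class, held 116, 98.8, 85.1, 130, 32.5 and 69.2 CPM, which Foxp3+ T cells exceeded by 5.02-fold to 11.6-fold. Cd44- Cd4+ T cells held 25.0, 25.7, 25.8, 10.9, 52.3 and 16.8 CPM, less than the Cd44+ class in every tumour but M. Gzmb+ Cd8+ T cells, the cytotoxic class, held 187, 140, 114, 61.8 and 66.4 CPM in the 5 clones, and 4T1 had too few of these cells to be read. Lef1+ Cd8+ T cells held 147, 80.2, 117, 161, 40.0 and 0 CPM, and the Gzmb+ class was the higher one in 3 of 5 tumours, a difference within the spread (mean log2 0.07, SD 0.80). Foxp3+ T cells thus lay above both Cd4+ classes in every tumour. After thinning, 18.6% to 39.3% of Foxp3+ T cells and 20% to 41.9% of NK cells had a Ccr2 UMI. Macrophages gave 8.81% to 15.1% and granulocytes, which serve as a background, 0.490% to 2.59%. Without thinning, the share was 21.5% to 48.1% in Foxp3+ T cells, 28.9% to 44.9% in NK cells and 32.1% to 51.6% in macrophages. The order of these classes thus holds at equal depth, and no order per cell is read.

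Other Myeloid cells held 173, 142, 147, 186, 110 and 144 CPM of Ccr2, more than macrophages in 6 of 6 tumours. Granulocytes held 25.3, 9.61, 5.98, 28.4, 6.24 and 16.1 CPM, 5.48-fold to 18.5-fold less than macrophages. Dendritic cells held 36.7 to 108 CPM and B cells 0 to 73.4 CPM. Macrophages again held the largest part of the Ccr2 UMIs, 64.7% to 85.1%.

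**Figure D5:**
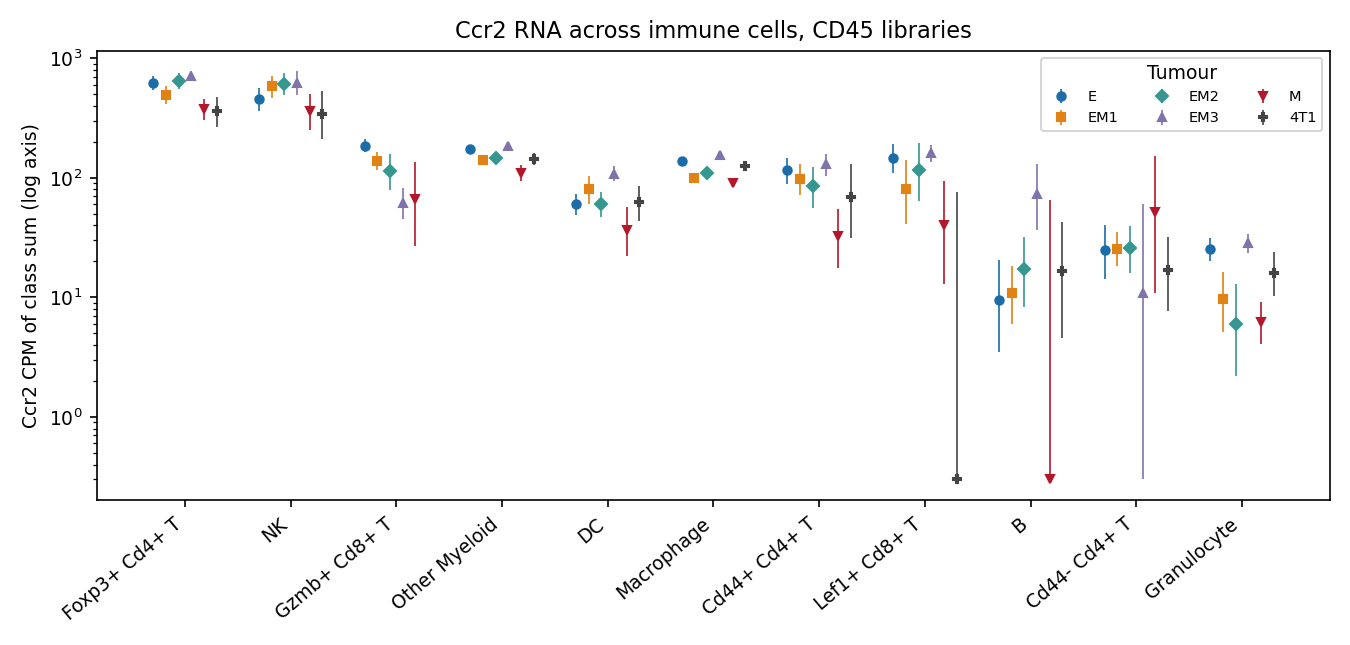
Ccr2 by annotated class and T cell subclass in the CD45 libraries (CPM, log axis), 1 point per tumour with its exact 95% Poisson interval, and sums without a UMI drawn at 0.3 CPM. Foxp3+ Cd4+ T cells (360 to 714 CPM) and NK cells (343 to 623 CPM) lie above macrophages (91.1 to 156 CPM) in every tumour.

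Other receptors of these ligands were read in the same classes. Ccr1 averaged 782 CPM in CD45 granulocytes (692 to 852 over the 6 tumours) and 412 CPM in macrophages. Ccr8, the receptor that mouse Ccl8 binds, averaged 625 CPM in Foxp3+ T cells (520.3 to 887) and 350.4 CPM in Cd44+ Cd4+ T cells. Foxp3+ T cells thus led for Ccr8 as well as being among the highest for Ccr2. Ackr1, a decoy receptor of vessels, averaged 209 CPM in endothelium of the Total libraries (55.0 to 326).

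Across 51 sums of a class and a tumour in the Total libraries, the genes most like each member by Pearson r of log2(CPM + 10) were as follows. Ccl2 was most like Spats2l (r = 0.878), Flrt2 (0.866) and Tbx3 (0.859), and Ccl7 most like Col14a1 (0.940), Vcan (0.938) and Tmem119 (0.909). Ccl8 was most like Adgre1 (0.876), C6 (0.874) and Siglec1 (0.863), Ccl12 most like Prune2 (0.924), Ms4a7 (0.915) and Trem2 (0.914), and Ccr2 most like Runx3 (0.911), Lpxn (0.885) and Il7r (0.877). Col14a1 encodes a fibrillar-associated collagen, while Adgre1 and Siglec1 encode surface proteins of macrophages.

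Across 47 sums of the CD45 libraries, Ccl2 and Ccl7 were each other's nearest gene (0.896). Ccl8 was again close to C6 (0.882), followed by Cp (0.859) and C4b (0.835), and Ccl12 was closest to C1qa (0.913), Rab3il1 (0.906) and Trim47 (0.906). Ccr2 was closest to Ctla2b (0.904), Tex2 (0.893) and Slc12a7 (0.885). The sums of a tumour share a library and its depth, so these values are descriptions without a test.

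The ligands are known for drawing in monocytes, so their level in tumour cells was set against the share of macrophages and Other Myeloid cells in the CD45 library of the same tumour. That share was 51.5%, 40.5%, 56.2%, 51.5%, 37.0% and 56.6%. EM1 and M, with 72.4 and 106 CPM of Ccl2 in their tumour cells, had the lowest shares, and 4T1, with 198 CPM, the highest. Since tumour-cell Ccl2 fell into separate sets of 3 tumours, no pooled correlation is given for it, although it counts among the 4 relations over which p-values were adjusted. Across the 6 tumours Ccl7 gave r = -0.09 (exact permutation p = 0.861), Ccl8 r = 0.19 (exact p = 0.764) and Ccl12 r = 0.28 (exact p = 0.586), with an adjusted p of 0.861 for each. Spearman's rho was -0.03 (exact p = 1.0), -0.09 (exact p = 0.919) and 0.20 (exact p = 0.714), adjusted 1.0 for each. Without the 2 tumours farthest from the median level, r was -0.61, 0.82 and 0.13. The pairs of tumours that share barcodes hold too few tumours for a value within them. Ccl7, Ccl8 and Ccl12 in tumour cells lay below the level in T and NK cells of the same library in 6 of 6 tumours, at a greater depth per cell. How much of it was free RNA was not tested, so the correlations are not read further.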

How the data were processed

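Per the labels' protocols, tumours were digested, red cells lysed and cells fixed with a fixed-RNA kit, and 3′ reagents are also named, so the chemistry is not settled. Per the submitters' processing notes, Cell Ranger (version not stated) and mm10 were used. Raw UMI counts of each gene in each cell make up the deposited matrices. Further deposited columns give the mitochondrial content of each cell as a percent and as a fraction, along with the authors' cell classes. Any removal of doublets by the authors is not given in the sources used here. Doublets were called per library by the Scrublet method, rebuilt in scikit-learn 1.9.0 with 1 score limit for all libraries, the median of their valleys, and 4037 of 115612 cells (3.49%, 2.06% to 4.47% per library) were left out.

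Counts were summed over the cells of an annotated class in a library (at least 20 cells) and scaled to CPM. Intervals are exact Poisson or, for shares, Clopper-Pearson at 95%. Intervals cover counting error only. Differences between tumours were called at 2-fold with a pseudocount of 10 CPM, without a test. Within tumours, an exact sign-flip test (scipy 1.17.1) was used. The median depth of a cell ranged from 1557 to 10042 UMIs over the libraries. The fold rule, the Poisson interval and the sign-flip test recovered known answers on simulated data. For the fold rule these were Poisson sums with changes larger than the 2-fold limit. Doublet calling, thinning, shares and correlations were not simulated. Named genes were the 5 members, the pathway lists and the 3 genes most like each member. The members and lists were chosen with earlier results of these data known, and some listed genes are not reported here. The alternatives were doublets kept, a pseudocount of 1 CPM, means of per-cell CPM, at least 650 genes per cell, no Ptprc UMI, TMM scaling (edgeR 4.0.16), no thinning and leaving out each tumour.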

Additional observations from a re-analysis of the deposited data

How the results depend on the processing

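Of 332 alternative values of 62 log2 ratios between tumours, 71 moved beyond counting error, with a median shift of 0.04 and a largest of 1.5. Of 74 alternatives of the 14 called ratios, 7 fell under 2-fold. These were Ccl12 between EM1 and EM2 in stromal cells without Ptprc (0.00), and in Total macrophages with means of per-cell CPM Ccl7 in EM3 against E (0.84), Ccl2 in EM1 against EM2 (-0.98) and Ccl7 in 4T1 against M (-0.82). In CD45 macrophages they were Ccl7 in 4T1 against M with TMM (-0.99) and Ccl12 in M against E with means of per-cell CPM and with TMM (0.75 each). With a pseudocount of 1 CPM, 4 values were called in tumour cells in place of 2. Means of per-cell CPM gave 5 calls in stromal cells and 4 in Total macrophages, and TMM gave 1 in CD45 macrophages. The cause was not tested. The shares of all genes called under these settings are not given, so these counts are not read as results about the members.

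Ccl7 was highest in CD45 macrophages in 2 tumours, in 4 with doublets kept, in 1 with means of per-cell CPM and in 1 to 2 with a tumour left out. With those means Ccl8 was so in 2 tumours in place of 5, and the mean of Ccl12 in Other Myeloid cells was 392 CPM.

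The Ly6c2 differences of Ccl7, Ccl8, Ccl12 and Ccr2 were -1.24, -2.08, -1.48 and 1.30 without thinning, and -2.34, -2.85, -2.09 and 1.07 with doublets kept, each with an adjusted exact p of 0.0391. With a tumour left out they ranged from -2.20 to -1.62, -3.81 to -3.22, -2.09 to -1.38 and 1.02 to 1.28. Ccl2 ranged from -0.43 to 0.08 and turned positive, to 0.05 and 0.08, without 1 tumour or another. The correlations with the macrophage share ranged with a tumour left out from -0.77 to 0.24 for Ccl7 (reversed to 0.08 and 0.24), from -0.015 to 0.54 for Ccl8 (reversed to -0.015) and from -0.008 to 0.57 for Ccl12 (reversed to -0.008).

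No paired analysis was possible because each group has 1 tumour. The Ly6c2 comparison within tumours is itself paired by tumour.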
